A study of Bos taurus with 20 samples.

Results

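The collagen chain genes of cattle skin were followed here in 20 two-colour arrays. Probes were taken by name or description as a collagen alpha chain, with COL17A1 left out, which gave 42 of the 21475 probes on the array. Of these, 40 matched 38 chain genes (11 fibrillar, 6 of basement membrane, 9 fibril-associated, called FACIT, and 12 of other types). The other 2 were not chains: COL4A3BP names a ceramide carrier, now CERT1, that is no collagen, and a probe described as like the type X chain has another gene name in the reference annotation. The whole array held 15361 named genes with 1 brightest probe each.

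Skin with epidermis, dermis and dermal connective tissue had been taken where horns form on the skull of 4 polled cattle (hornless; 3 females and 1 male), 4 scurred cattle (loose, rudimentary horns; 1 female and 3 males) and 3 horned cattle (1 female and 2 males). Control skin came from the skull away from that site in polled replicate 3 and scurred replicate 2. Each of chips 1 to 4 held 1 polled, 1 scurred and 1 horned animal in a loop of 4 arrays, with horned replicate 2 on chips 2 and 4, and chip 5 held the pairs of horn site and control site. Breed and age are not given in the sources used here. Polled replicate 2 is the male among the polled animals, and only the pair of polled and horned animals on chip 4 is of 1 sex.

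Collagens are trimers of alpha chains wound into a triple helix. Types I, III and V build the fibrils of the dermis, type VI forms beaded microfibrils around them, and FACIT chains sit on the fibril surface. Type IV chains form the sheet of basement membranes, and type VII makes the anchoring fibrils that tie the epidermal basement membrane to the dermis. Fibroblasts make most dermal collagen, while keratinocytes make much of the type VII.

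Each probe is a run of 60 bases designed to read 1 transcript. Probe sequences of 2 chains are shown as the deposited files give them, one for a sheet-forming chain and one for a microfibril chain, as examples of what was measured. Each is written in lower case with no part marked.
COL4A2 probe: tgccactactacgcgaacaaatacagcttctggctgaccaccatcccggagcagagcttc
COL6A2 probe: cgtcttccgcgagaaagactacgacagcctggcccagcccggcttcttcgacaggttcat
The letters AATAAA, the common polyadenylation signal, stood on the probe's own strand in 7 of the 40 chain probes (17.5%) and in 11.8% of all 21475 probes. In the reference annotation (assembly ARS-UCD2.0, used for names and gene order only) 5 pairs of chain genes are next neighbours, COL6A1 with COL6A2, COL4A1 with COL4A2, COL5A2 with COL3A1, COL4A4 with COL4A3, and COL4A6 with COL4A5 on chromosome X.

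A chain counted as measured once 3 or more of the 11 animals had its probe well above background. That held for 32 of the 38 chain genes, 11 fibrillar, 4 of basement membrane, 7 FACIT and 10 of other types, and 24 were well above background in all 11 animals. COL4A1, COL4A4, COL8A2, COL20A1, COL21A1 and COL25A1 were not measured. COL4A1, the partner of COL4A2 in most basement membranes, was not well above background in any animal, so its chain could not be followed. The COL4A1 probe holds the letters CTCGAG, an XhoI site, as do 0.484% of all probes. Whether this probe reads its transcript was not tested. COL1A2 and COL6A3 had a second, dim probe each. The second COL1A2 probe had a mean log2 intensity of 6.3, was well above background in 0 animals and was left out in favour of the bright one. COL14A1, COL11A2, COL8A1, COL9A1, COL9A3, COL4A3, COL10A1 and COL9A2 were measured but dim, in 3 to 10 animals.

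Spots well above background made up 62.24% to 73.75% of each array. Scurred replicate 1 was least like the others (mean r over probes 0.922, where each of the remaining animals had 0.949 to 0.965). Chip 1, with replicate 1 of each horn type, was scanned on another day than chips 2 to 5. Of the defining markers, 16 of 16 epidermal and 8 of 9 dermal fibroblast genes were measured, with TWIST2 never well above background. Markers of skeletal muscle were measured too (8 of 10 listed), and their summed level varied widely, from 17118 to 743287 in polled, 14052 to 185612 in scurred and 1991 to 151920 in horned animals.

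Most collagen chains lay lower in polled than in horned skin, while in scurred skin they lay on both sides of the horned level. Differences are log2 ratios fitted with a term for sex in limma. In polled minus horned, 26 of the 32 measured chains were below 0, and 6 were above 0, against 48.5% and 51.5% of 12049 genes, with a median of −0.37 against 0.01 over all genes. None of the 32 passed at an adjusted p of 0.05, and 1 of 15712 probes (0.00636%) did. At an unadjusted p under 0.05 there were 6 chains lower and 0 higher, where the shares of all genes were 4.79% and 4.64%. The 9 chains that were lower and 1 that was higher in 4 of 4 polled animals compare with 13.3% and 14% of all genes. Medians over the chains in polled replicates 1 to 4 were −0.40, −0.43, −0.08 and −0.09. The lower side thus weighed most in replicates 1 and 2. Without polled replicate 2 the fitted median was 0.02 with 16 chains below 0, and without chip 2 it was 0.07 with 14 below 0. With that animal left out and no sex term as well, an alternative chosen after seeing the data, the median was −0.23 with 24 chains below 0.

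In scurred minus horned, 14 of the 32 chains were below 0 and 18 above (48.2% and 51.8% of all genes), and the median was 0.04. In 4 of 4 scurred animals 1 chain was higher and 3 were lower, against 8.81% and 9.88% of all genes. Limma called 0 of 15712 probes (0%), and at an unadjusted p under 0.05 there were 3 chains lower and 0 higher (2.1% and 1.67% of all genes). Medians in scurred replicates 1 to 4 were −0.12, 0.11, −0.11 and 0.44. Scurred replicate 4 was thus the animal in which most chains lay above horned skin, with 5 of 32 below 0.

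In scurred minus polled, 24 of the 32 chains were above 0 and 8 below, against 49% and 51% of all genes, with a median of 0.39 against 0.00. This comparison shares its animals with the other 2, so it is no separate evidence. No probe of 15712 passed (0%), and at an unadjusted p under 0.05 there were 5 chains higher and 1 lower (3.24% and 2.81% of all genes). On 4 of 4 chips 7 chains were higher in the scurred animal and 1 was lower, against 9.95% and 8.91% of all genes. Without polled replicate 2 the median was −0.06 and without chip 2 −0.21. With that animal and the sex term both left out it was 0.25, with 11 chains below 0.

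**Figure D1:**
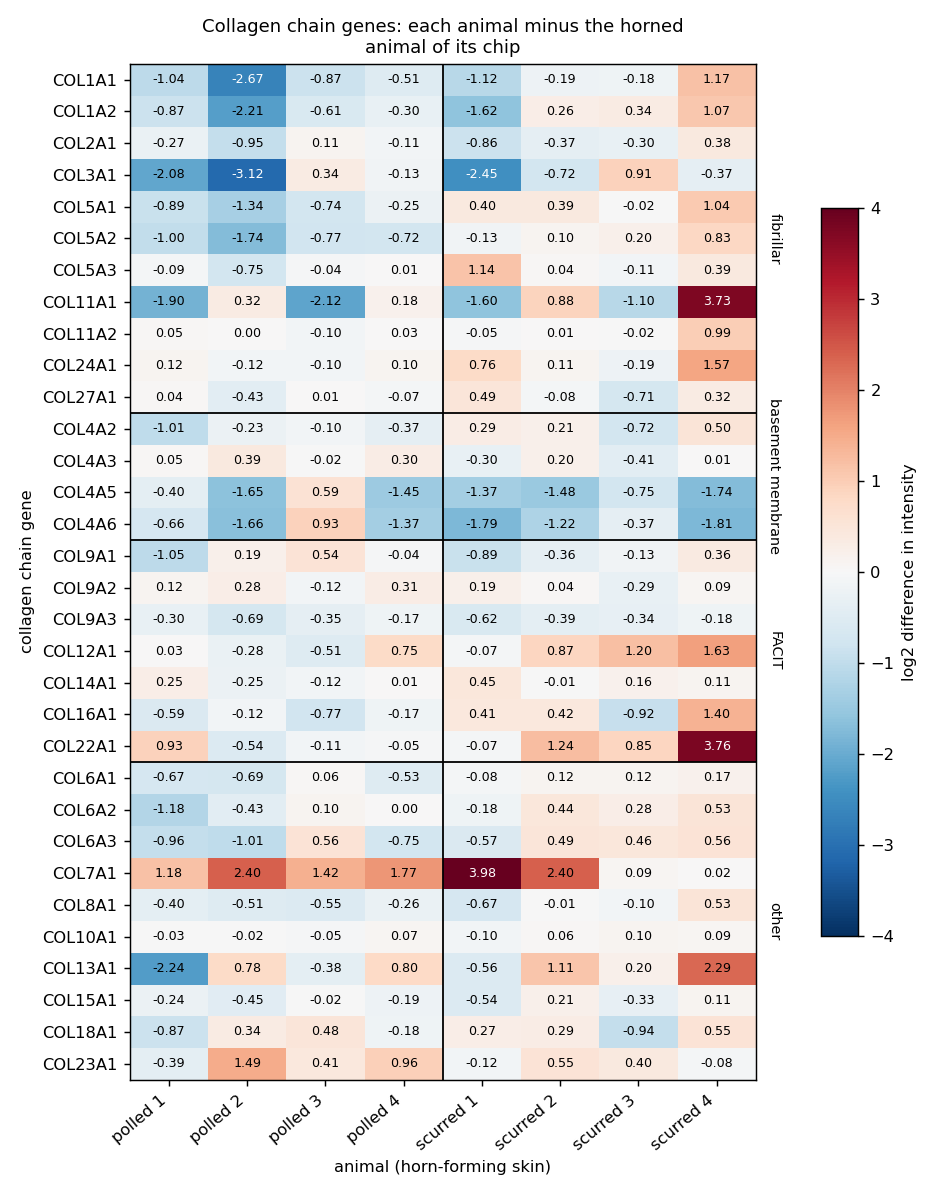
Log2 difference in intensity of each of the 32 measured collagen chains (rows, by class) in each polled and scurred animal (columns) from the horned animal of its chip; blue is lower and red higher than horned, on a scale from −4 to 4. COL1A1 is below 0 in 4 of 4 polled animals, COL7A1 is above 0 in 8 of 8, and scurred 4 holds the highest values of COL11A1 (3.73) and COL22A1 (3.76).

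Most fibrillar chains were fitted lower in polled than in horned skin, but not without polled replicate 2 or chip 2. The class is not only dermal, since it holds COL2A1, the main cartilage collagen. Of the 11 fibrillar chains 9 were below 0 in polled minus horned (median −0.82), 4 were below 0 in scurred minus horned (median 0.04) and 0 were below 0 in scurred minus polled (median 0.79). By animal, the fibrillar median was −0.87, −0.95, −0.10 and −0.11 in polled replicates 1 to 4 and −0.13, 0.04, −0.11 and 0.99 in scurred replicates 1 to 4. Without chip 2 the fibrillar median in polled minus horned was 0.09, with 5 of 11 below 0. Without polled replicate 2 it was 0.15, again with 5 of 11 below 0. With that animal and the sex term both left out it was −0.58, with 10 of 11 below 0. In scurred minus polled it was −0.25 without that animal (7 of 11 below 0), −0.22 without chip 2 (8 of 11 below 0), and 0.48 without that animal and the sex term (3 of 11 below 0).

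Type I collagen, the main dermal collagen, is made of the products of COL1A1 and COL1A2. COL1A1 stood at log2 intensities of 14.80, 13.64, 15.14 and 14.97 in polled replicates 1 to 4, against 15.53, 15.75 and 15.82 in horned replicates 1 to 3. COL1A2 stood at 15.84, 14.44, 15.78 and 16.13 in the polled and 16.50, 16.48 and 16.34 in the horned animals. For both genes each polled animal was below each horned animal. In limma COL1A1 was fitted at −1.52 (2.86-fold, SE 0.651, adjusted p 0.539). The fit of COL1A2 gave −1.28 (2.44-fold, SE 0.635, adjusted p 0.57). Without polled replicate 2 they were −0.15 and −0.21, and without that animal and the sex term −0.81 and −0.58, while COL1A2 was 0.14 without chip 2. In the scurred animals COL1A1 stood at 14.83, 15.75, 15.53 and 16.28 and COL1A2 at 15.19, 16.51, 16.57 and 17.24, which overlapped the horned levels. Fitted against horned, COL1A1 was −0.04 (SE 0.619) and COL1A2 0.04 (SE 0.604), both with an adjusted p of 1. Both chains were lowest in polled replicate 2 and highest in scurred replicate 4.

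COL3A1, the chain of the finer type III fibrils, was less even. Its differences from horned were −2.08, −3.12, 0.34 and −0.13 in polled replicates 1 to 4 and −2.45, −0.72, 0.91 and −0.37 in scurred replicates 1 to 4. Low values lay on chips 1 and 2 in both groups, and the groups overlapped. The fitted difference was −1.58 (SE 0.764, adjusted p 0.57) in polled minus horned, −0.50 (SE 0.727) in scurred minus horned and 1.07 (SE 0.741) in scurred minus polled. Without polled replicate 2 the first was −0.23 and the last −0.62.

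Type V collagen sits inside type I fibrils and limits their width. COL5A2, one of its chains, had the lowest p of the measured chains in polled minus horned. Its level was 12.85, 11.92, 13.34 and 13.10 in polled replicates 1 to 4, 13.72, 13.73, 14.22 and 14.60 in scurred replicates 1 to 4, and 13.81, 13.74 and 14.12 in horned replicates 1 to 3. Every polled animal was below every scurred and every horned animal. The fitted difference was −1.16 (SE 0.316, adjusted p 0.469), a 2.23-fold lower level, in polled minus horned and 1.43 (SE 0.307, adjusted p 0.793) in scurred minus polled. It stayed below 0 in polled skin with any animal or chip left out, from −1.32 to −0.50. COL5A1, the partner chain, stood at 11.34, 10, 11.08 and 11.08 in the polled, 12.59, 11.79, 11.79 and 12.57 in the scurred, and 12.22, 11.38 and 11.81 in the horned animals. Here too the polled animals did not overlap with either group. COL5A1 was fitted at −0.90 (SE 0.319, adjusted p 0.502) in polled minus horned and 1.34 (SE 0.309, adjusted p 0.793) in scurred minus polled, with leave-out ranges of −1.12 to −0.15 and 0.39 to 1.60. COL5A3, another type V chain, was close to horned in 3 polled animals and high in scurred replicate 1 (1.14), and was fitted at 0.67 (SE 0.292) in scurred minus polled.

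COL11A1, COL11A2 and COL24A1, picked after their values were seen, had their highest scurred value in replicate 4. Of these COL11A2 was dim, well above background in 3 of the 11 animals. COL11A1, which nucleates thin fibrils, ran from −2.12 to 0.32 in polled animals, and stood at −1.60, 0.88, −1.10 and 3.73 in scurred replicates 1 to 4. COL24A1, a minor fibrillar chain, stood at 0.76, 0.11, −0.19 and 1.57 and COL11A2 at −0.05, 0.01, −0.02 and 0.99 in the same scurred animals. The cartilage and bone markers were high in that animal as well, at a median of 1.88 against −0.18, 0.27 and −0.03 in scurred replicates 1 to 3, with a summed level of 49807 against 4946 to 8625 in the 10 other animals. Among these markers ACAN, the large cartilage proteoglycan, stood at 4.31, HAPLN1 at 3.70 and BGLAP, osteocalcin, at 3.17 in that animal. CHAD stood at 2.52 and RUNX2 at 1.24 there. The other measured markers did not follow, with COMP at 0.50, SOX9 at 0.37 and MATN1 at 0.03 in scurred replicate 4. In scurred replicate 2 these 3 were higher, at 0.97, 1.75 and 0.09. SP7 was never well above background in any animal. Other chains known from cartilage stood near 0 there, with COL2A1, the main cartilage collagen, at 0.38, COL10A1, of growth cartilage, at 0.09, and the type IX chains COL9A1, COL9A2 and COL9A3 at 0.36, 0.09 and −0.18. The part of these markers in the chain values was not tested.

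**Figure D2:**
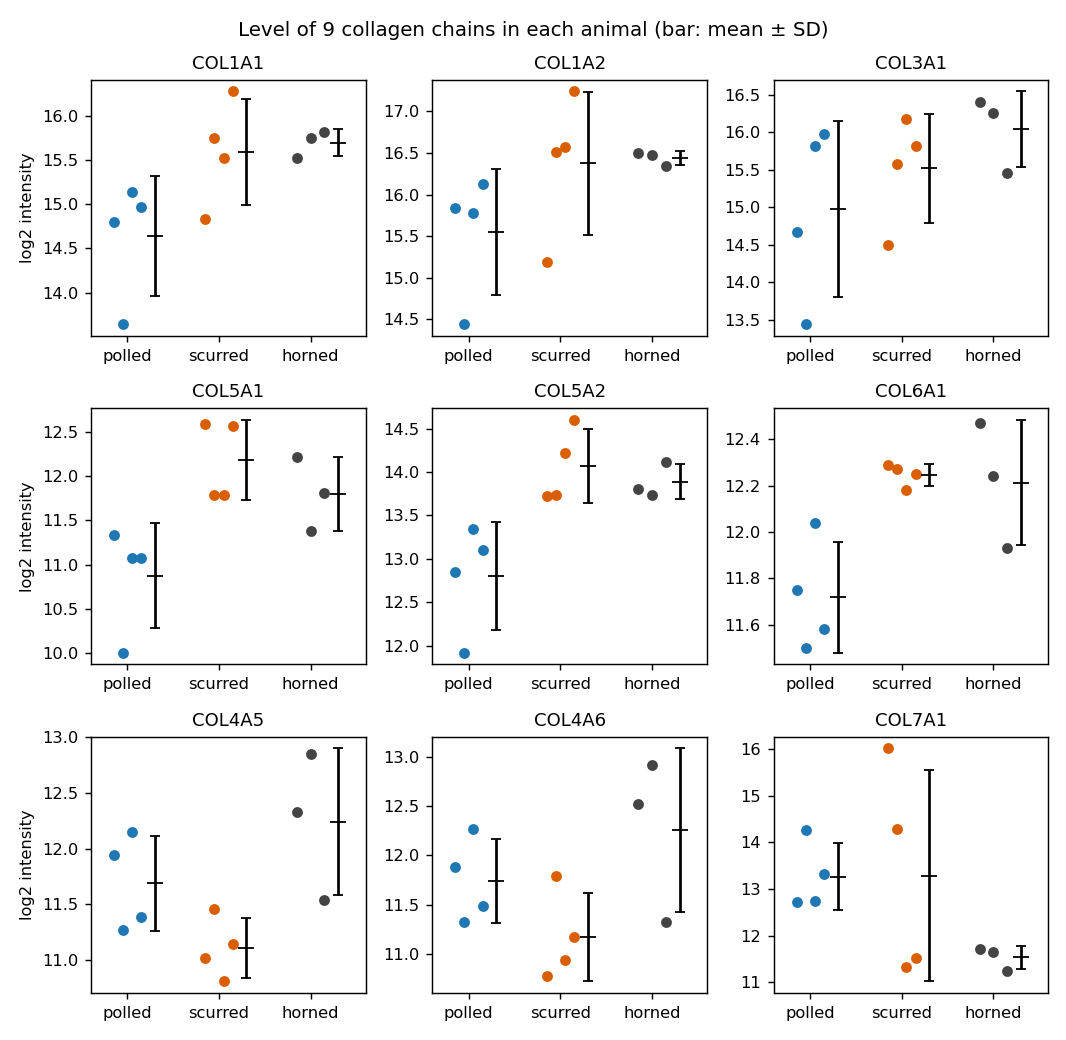
Normalised log2 intensity (vertical axes, each probe on its own scale) of 9 collagen chains in each polled, scurred and horned animal (points), with the mean and SD of each group as a bar. Polled points lie below all horned points for COL1A1, COL1A2, COL5A1 and COL5A2, and 2 of 4 scurred points of COL7A1 lie far above the horned ones.

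The 3 main chains of type VI collagen were fitted above the polled level in scurred skin, and none passed the adjusted test. COL6A1 stood at 11.75, 11.50, 12.04 and 11.58 in polled, 12.29, 12.27, 12.18 and 12.25 in scurred and 12.47, 12.24 and 11.93 in horned animals. The scurred animals were close to each other and all above the polled ones. COL6A2 stood at 8.32, 8.09, 8.89 and 8.55 in polled and 9.30, 8.95, 9.10 and 9.11 in scurred animals, again without overlap. COL6A3 levels overlapped, at 12.40, 12.17, 13.83 and 12.50 in polled and 12.71, 13.65, 13.70 and 13.75 in scurred animals. Within chip 3 the scurred minus polled difference of COL6A3 was −0.10. In scurred minus polled COL6A1 was 0.62 (SE 0.16), COL6A2 0.65 (SE 0.246) and COL6A3 0.96 (SE 0.33), each with an adjusted p of 0.793. With an animal or chip left out COL6A1 ran from 0.49 to 0.71, COL6A2 from 0.06 to 0.76 and COL6A3 from 0.49 to 1.15, the lowest values of the last 2 without chip 2. In polled minus horned they were −0.50 (SE 0.165), −0.43 (SE 0.254) and −0.67 (SE 0.34), and in scurred minus horned 0.11, 0.22 and 0.29. Left-out animals or chips gave −0.64 to −0.38 for COL6A1, −0.67 to −0.01 for COL6A2 (the highest without chip 2) and −1 to −0.33 for COL6A3 (the highest without horned replicate 1) in polled minus horned. The mean of both COL6A3 probes gave −0.31 there and 0.54 in scurred minus polled. Polled replicate 3 differed from the other polled animals, with COL6A3 at 0.56 above horned where the rest stood at −0.96, −1.01 and −0.75.

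Between scurred and polled skin, 5 chains did not overlap in level, COL5A1, COL5A2, COL5A3, COL6A1 and COL6A2, all higher in scurred, against 1.51% of all genes, and 0 were lower (1.37%). Between polled and horned skin, COL1A1, COL1A2, COL5A1, COL5A2, COL9A3 and COL16A1 were lower without overlap (5.2% of all genes) and COL7A1 was higher (4.72%). Between scurred and horned skin COL5A3 was higher (1.93%), and COL9A3 and COL4A5 were lower (2.71%). COL5A3 parted only narrowly, with its lowest scurred level at 11.72 against highest levels of 11.7 in horned and 11.66 in polled animals. Within chip 3 its sign was the other way, with scurred replicate 3 at −0.11 from the horned and −0.08 from the polled animal. Other gaps were narrow too. The highest polled and lowest horned levels were 11.34 and 11.38 for COL5A1, and 14.83 and 14.89 for COL16A1. For COL6A2 the highest polled level was 8.89 and the lowest scurred level 8.95. For COL4A5 the highest scurred level was 11.46 and the lowest horned level 11.54.

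The basement membrane chains COL4A5 and COL4A6 were fitted below the horned level in both polled and scurred skin, though neither passed the adjusted test. Their genes are next neighbours on chromosome X and both chains are known from basement membranes of epidermis and smooth muscle. COL4A5 stood at 11.02, 11.46, 10.81 and 11.14 in scurred replicates 1 to 4, against 12.33, 12.85 and 11.54 in horned replicates 1 to 3. Polled animals overlapped both groups, at 11.94, 11.27, 12.15 and 11.39. All scurred animals were below all horned ones. Horned replicate 3 was the lowest horned animal for COL4A5 and for COL4A6, where it stood at 11.32 against 12.52 and 12.92. Polled levels of COL4A6 overlapped the horned ones too. Against the horned animal of the chip COL4A5 was lower in 4 of 4 scurred and 3 of 4 polled animals, and in polled replicate 3 it was higher, by 0.59. COL4A6, whose levels overlapped between scurred and horned animals, stood against horned at −1.79, −1.22, −0.37 and −1.81 in scurred and −0.66, −1.66, 0.93 and −1.37 in polled replicates 1 to 4. In scurred minus horned COL4A5 was −1.11 (2.16-fold, SE 0.247) and COL4A6 −1.07 (2.1-fold, SE 0.309), both with an adjusted p of 1. In polled minus horned COL4A5 was −0.84 (SE 0.259, adjusted p 0.485). COL4A6 was −0.85 there (SE 0.324, adjusted p 0.523), and scurred and polled skin differed by −0.28 (SE 0.252) and −0.22 (SE 0.315). The scurred values ran from −1.40 to −0.92 for COL4A5 and −1.51 to −0.73 for COL4A6 with an animal or chip left out, and were −1.20 and −1.17 with no sex term.

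Markers of smooth muscle were also low in scurred animals, at medians of −2.02, −0.43, −0.07 and −0.25, and stood at −1.30, −0.46, 0.55 and −0.04 in polled animals. Schwann cell markers stood at −1.03, −0.28, −0.44 and −0.08 in scurred and 0.02, −0.98, 0.22 and −0.94 in polled animals. All 7 smooth muscle markers were below 0 in scurred minus horned, 5 of them in each of the 4 animals. Among all genes 48.2% were below 0 there, and 9.88% were lower in 4 of 4 scurred animals. The summed level of the smooth muscle markers ran from 74129 to 168051 in scurred and 119815 to 387004 in horned animals. All 6 measured Schwann cell markers were below 0 in polled minus horned, against 48.5% of all genes. Their summed levels were 21020 to 43463 in polled and 37867 to 46796 in horned animals. Endothelial markers were below 0 in 7 of 7 in scurred minus horned, 5 of them in 4 of 4 animals (median −0.19). In polled minus horned 6 of the 7 were below 0 (median −0.21). Some of the 5 lay near 0, with TIE1 from −0.27 to −0.06 in scurred animals and ESAM at −0.03 in scurred replicate 3. Epidermal markers lay the other way, with 15 of 16 above 0 in both comparisons, against 51.5% of all genes in polled and 51.8% in scurred minus horned. The part of these cell types in the COL4A5 and COL4A6 values was not tested.

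The other measured chains of basement membrane were nearer 0. COL4A2, which pairs with COL4A1, stood at −1.01, −0.23, −0.10 and −0.37 in polled replicates 1 to 4, all below horned (fitted −0.43, SE 0.33, adjusted p 0.705), and was 0.00 (SE 0.314) in scurred minus horned. COL4A3, a dim probe, was lower in scurred than in polled skin on 4 of 4 chips, at −0.35, −0.19, −0.39 and −0.29 (fitted −0.33, SE 0.133, adjusted p 0.817), and −1.30 with deposited log ratios.

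COL7A1, the chain of anchoring fibrils, lay above the horned animal of the chip in 8 of 8 animals. In scurred replicates 3 and 4 this was by only 0.09 and 0.02. The 8 differences share 3 horned animals, so they are not independent. It stood at 12.73, 14.27, 12.74 and 13.32 in polled, 16.01, 14.29, 11.33 and 11.52 in scurred and 11.71, 11.64 and 11.25 in horned animals. All polled animals were above all horned ones, whereas the scurred animals fell apart, replicates 1 and 2 high and 3 and 4 at the horned level. The fitted difference was 1.68 (SE 0.956, adjusted p 0.608), 3.2-fold, in polled minus horned and 1.63 (SE 0.91, adjusted p 1), 3.1-fold, in scurred minus horned. Without polled replicate 2 the first was 0.63, and 1.46 with the sex term left out as well, and without scurred replicate 1 the second was 0.67. Epidermal markers had medians of 0.69, 1.33, 0.76 and 0.72 in polled replicates 1 to 4 and 2.32, 1.22, 0.13 and −0.24 in scurred replicates 1 to 4. Of the 16 markers 15 were above 0 in each comparison with horned skin, and their summed level ran from 167505 to 532054 in polled, 84246 to 1106799 in scurred and 75880 to 117673 in horned animals. The part of this in the COL7A1 value was not tested. In a biopsy, fewer cells of a type and less RNA per cell cannot be told apart.

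Dermal fibroblast markers, given beside the fibrillar chains, had medians of −0.43, −1.11, −0.16 and −0.54 in polled and −0.44, 0.12, 0.19 and 0.17 in scurred replicates 1 to 4. All 8 measured markers were below 0 in polled minus horned, among them THY1 at −1.21 (SE 0.269) and LUM, a fibril-binding proteoglycan, at −1.10 (SE 0.435). Macrophage markers were below 0 as well in 6 of 6 (median −0.66) and smooth muscle markers in 7 of 7 (median −0.55). Among all genes 48.5% were below 0 and 51.5% above in polled minus horned. Skeletal muscle markers were above 0 in 8 of 8 in polled minus horned (median 1.64) and in scurred minus horned (median 1.54), with 0 of them on 1 side in all 4 animals of either group. The summed level of the fibroblast markers ran from 57696 to 129779 in polled, 91132 to 223592 in scurred and 136160 to 189753 in horned animals, so the polled animals lay below the horned ones. The part of this in the fibrillar values was not tested.

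**Figure D3:**
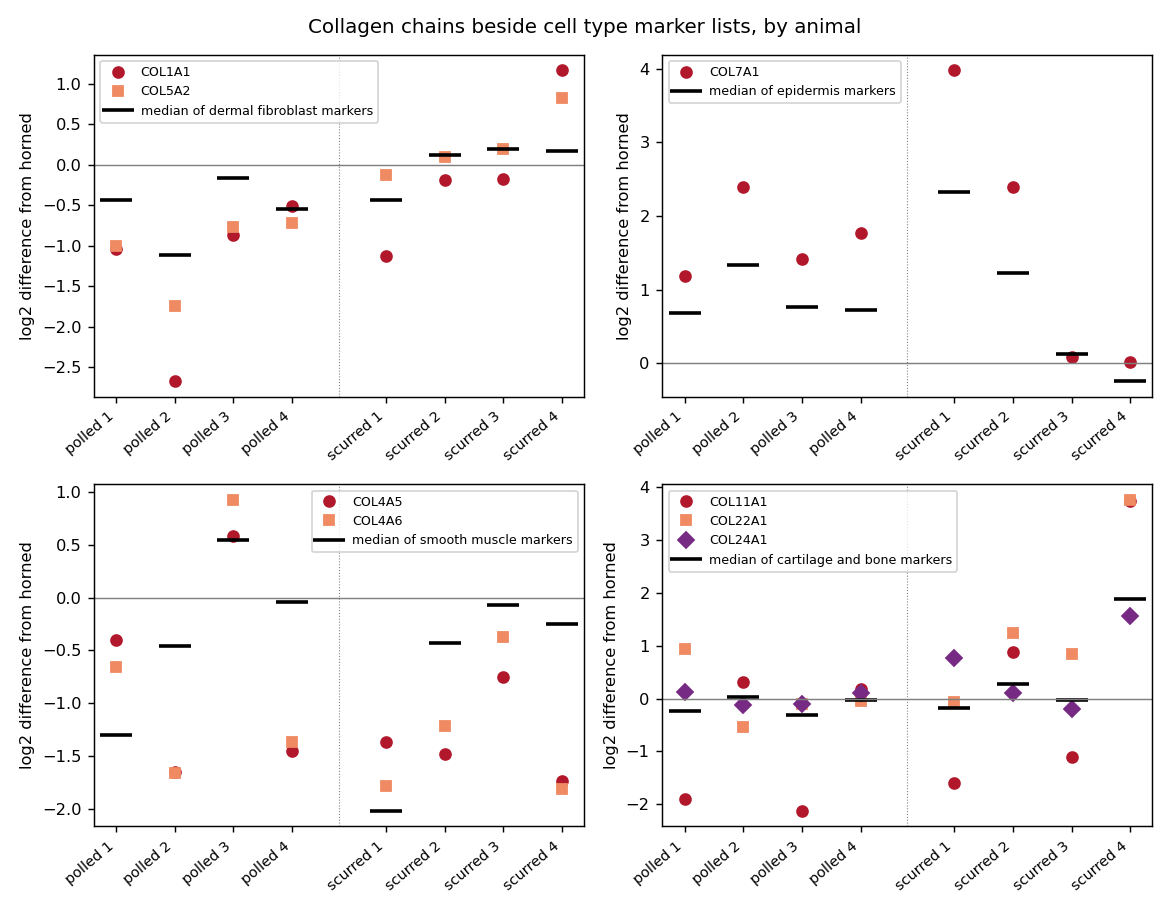
Log2 difference from the horned animal of the chip for selected chains (coloured points) and the median of a cell type marker list (black bars) in each polled and scurred animal. COL7A1 and the epidermal median are both high in scurred 1 and 2 and near 0 in scurred 3 and 4, and COL11A1, COL22A1 and the cartilage and bone median are highest in scurred 4.

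The FACIT chains were mixed, with medians of −0.04 in polled minus horned (6 of 7 below 0) and 0.18 in scurred minus horned (3 of 7 below 0). COL12A1, which coats fibrils in dense connective tissue, stood at −0.07, 0.87, 1.20 and 1.63 in scurred and 0.03, −0.28, −0.51 and 0.75 in polled replicates 1 to 4. It was fitted at 0.83 (SE 0.407, adjusted p 1) in scurred minus horned, −0.06 (SE 0.428) in polled minus horned and 0.90 (SE 0.415, adjusted p 0.844) in scurred minus polled. Without chip 2 the polled value was 0.77 and the scurred minus polled value −0.19. COL16A1, a chain of the upper dermis, was below horned in 4 of 4 polled animals, at −0.59, −0.12, −0.77 and −0.17 (fitted −0.40, SE 0.369). COL22A1, known from tissue junctions such as that of muscle and tendon, stood at −0.07, 1.24, 0.85 and 3.76 in scurred replicates 1 to 4 and from −0.54 to 0.93 in polled animals (fitted 1.36, SE 0.851, in scurred minus horned). Scurred replicate 4 again set its height. COL9A3, a dim chain known from cartilage, was below horned in 8 of 8 animals, which were set against the same 3 horned animals. It ran from −0.69 to −0.17 in polled and −0.62 to −0.18 in scurred animals. In polled skin it was fitted at −0.44 (SE 0.163, adjusted p 0.523). In scurred skin the fit gave −0.37 (SE 0.155, adjusted p 1). Its probe was well above background in 2 polled, 2 scurred and 3 horned animals, so these values lie near the background. With deposited log ratios they were −1.54 and −1.45, and the polled value was −0.12 without chip 2. COL14A1, dim too, was −0.02 (SE 0.133) in polled and 0.21 (SE 0.126) in scurred minus horned.

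Among the remaining chains, COL13A1, a transmembrane collagen of cell adhesion sites, stood at −2.24, 0.78, −0.38 and 0.80 in polled and −0.56, 1.11, 0.20 and 2.29 in scurred replicates 1 to 4. It was higher in the scurred animal on 4 of 4 chips (fitted 0.60, SE 0.445, adjusted p 0.879) and −0.22 without polled replicate 2, −1.04 without chip 2 and 1.02 with no sex term. COL23A1, another transmembrane chain, stood at −0.39, 1.49, 0.41 and 0.96 in polled animals and between −0.12 and 0.55 in scurred ones. COL15A1 and COL18A1, collagens of the basement membrane zone, were −0.34 (SE 0.184) and −0.05 (SE 0.439) in polled minus horned and −0.13 and −0.05 in scurred minus horned. COL8A1, a short chain with a dim probe, was below horned in 4 of 4 polled animals, from −0.55 to −0.26 (fitted −0.47, SE 0.243). It was −0.01 without chip 2 and −2.47 with deposited log ratios. COL27A1, COL9A1, COL9A2 and COL10A1 lay between −0.34 and 0.16 in both comparisons with horned skin.

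**Figure D4:**
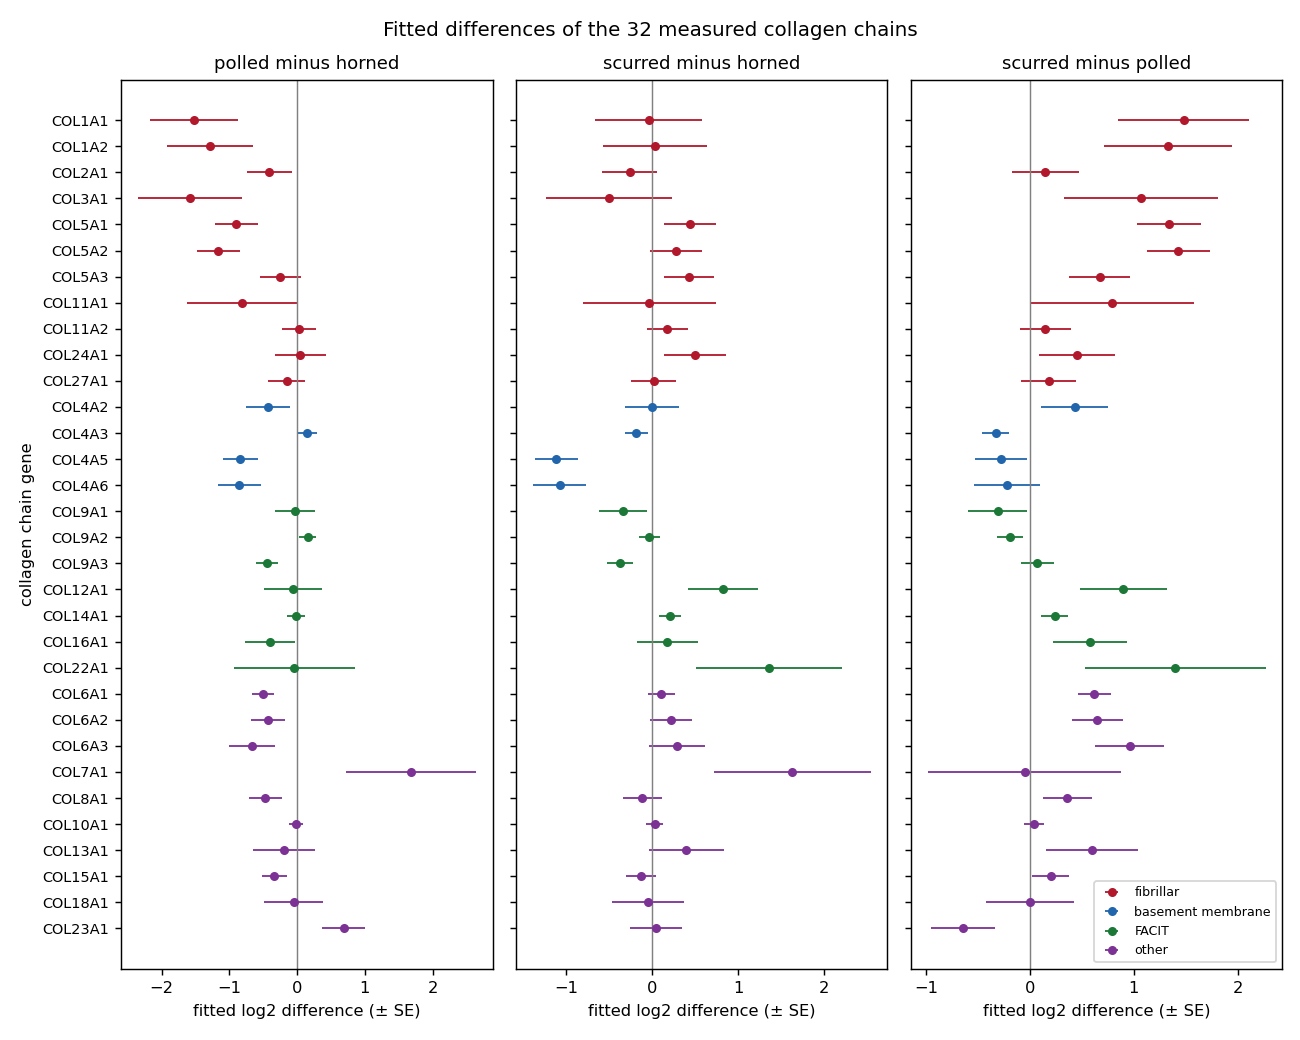
Fitted log2 difference (points, with SE bars) of the 32 measured chains in polled minus horned, scurred minus horned and scurred minus polled, coloured by class. Of the fibrillar chains 9 of 11 lie left of 0 in the first panel and 11 of 11 right of 0 in the last. Without polled replicate 2, 5 of 11 lie below 0 in polled minus horned and 7 of 11 in scurred minus polled. Without chip 2 these are 5 of 11 and 8 of 11.

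Genes that make and process collagen lay mostly below the horned level in polled skin. Of 26 measured of 30 listed, 22 were below 0 in polled minus horned (median −0.39) and 9 in scurred minus horned (median 0.06). In scurred minus polled 3 were below 0 (median 0.47). The shares of all genes below 0 in these comparisons were 48.5%, 48.2% and 51%. None passed at an adjusted p of 0.05, while at an unadjusted p under 0.05 there were 8 lower in polled minus horned (4.79% of all genes) and 11 higher and 1 lower in scurred minus polled (3.24% and 2.81%). P4HA3, a prolyl hydroxylase subunit, stood at −0.42, −1.27, −1.01 and −0.69 in polled replicates 1 to 4 (fitted −0.89, SE 0.271, adjusted p 0.485). PPIB, a prolyl isomerase of the endoplasmic reticulum, was fitted at −0.44 (SE 0.141), COLGALT1, which adds galactose to hydroxylysine, at −0.53 (SE 0.186), and PCOLCE, which speeds the cut of procollagen, at −1.36 (SE 0.472). Each of these 4 was below horned in 4 of 4 polled animals, as were 12 of the 26 on the list and 13.3% of all genes. The lowest p in scurred minus polled belonged to COLGALT1 at 0.62 (SE 0.181), PPIB at 0.44 (SE 0.137), and the crosslinking oxidases LOXL1 at 0.69 (SE 0.227) and LOX at 1.11 (SE 0.368), each higher on 4 of 4 chips with an adjusted p of 0.793. On 4 of 4 chips 14 of the 26 were higher and 2 lower in the scurred animal, against 9.95% and 8.91% of all genes. Medians of the list were −0.29, −0.64, −0.34 and −0.20 in polled and 0.10, −0.09, −0.06 and 0.46 in scurred replicates 1 to 4.

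Genes of collagen breakdown were at a median of −0.26 in polled minus horned, with 7 of 9 below 0 (48.5% of all genes). In scurred minus horned the median was 0.30, with 2 of 9 below 0 (48.2% of all genes). FAP, a protease of activated fibroblasts, was −0.98 (SE 0.493) and MRC2, a collagen uptake receptor, −1.11 (SE 0.583) in polled minus horned. Both were below horned in 4 of 4 animals, against 13.3% of all genes. TIMP1, an inhibitor of collagenases, stood at 1.27, 0.31, 0.20 and 0.86 in scurred replicates 1 to 4 (fitted 0.59, SE 0.241, adjusted p 1). MMP9, a gelatinase, stood at 5.65, 0.51, −0.06 and 4.99 in the same animals, so that scurred replicates 1 and 4 were far above the other pair. Of the collagen receptors, 4 of 7 were below 0 in polled minus horned (median −0.21) and 3 of 7 in scurred minus horned (median 0.11). ITGA11, an integrin chain of fibroblasts that binds fibrillar collagen, stood at −1.51, −1.93, −1.38 and −0.83 in polled animals (fitted −1.46, SE 0.549, adjusted p 0.523) and was 1.57 (SE 0.532, adjusted p 0.793) in scurred minus polled. DDR1, the collagen receptor kinase of epithelia, stood at 0.36, 1.79, 1.19 and 0.98 in the same polled animals (fitted 1.13, SE 0.54, adjusted p 0.568), opposite to ITGA11.

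Horn site and control site were compared within polled replicate 3 and scurred replicate 2, where 28 chains were measured. Of these 20 were above 0 and 8 below (46.1% and 53.9% of 11760 genes), with a median of 0.12 against −0.02 over all genes, and 0 passed in limma, as did 0 of 15290 probes (0%). At an unadjusted p under 0.05 there were 3 chains higher and 0 lower (2.69% and 2.35% of all genes), and 7 were higher and 3 lower in both animals (23% and 28.1%). The animals differed, with a median of 0.00 in polled replicate 3 and 0.31 in scurred replicate 2. With median centring, which moved the median of all genes to −0.198, 17 chains were below 0.

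COL4A6 was higher at the horn site in both animals, by 0.42 in polled replicate 3 and 0.51 in scurred replicate 2 (fitted 0.46, SE 0.118), and COL4A5 by 0.25 in each (SE 0.115). COL4A3, of the same family, was higher by 0.52 and 0.31 (fitted 0.42, SE 0.13) and COL2A1 by 0.76 and 0.38 (fitted 0.57, SE 0.157), all with an adjusted p of 0.962. COL15A1 was higher by 0.19 and 0.69 and COL1A2 by 0.14 and 0.55, while COL7A1 stood at −0.24 and −0.38 and COL27A1 at −0.11 and −0.12. With median centring COL4A6 stood at 0.12, COL15A1 at 0.07, COL4A5 at −0.09, COL1A2 at −0.08, COL4A3 at 0.65 and COL7A1 at −0.69. With deposited log ratios COL4A3 stood at 1.78 and COL2A1 at 1.39. In COL1A1 (−0.01 and 0.32), COL3A1 (−0.26 and 0.31), COL5A1 (−0.10 and 0.44), COL5A2 (−0.17 and 0.83) and COL6A3 (−0.10 and 0.75) the animals lay on opposite sides of 0. Markers of Schwann cells, with 6 of 6 above 0 and a median of 0.71, and of skeletal muscle, with 7 of 7 above 0 and a median of 2.73, were higher at the horn site, and those of smooth muscle lower, with 6 of 7 below 0 and a median of −0.37. Endothelial markers were above 0 in 7 of 7 (median 0.42), macrophage markers in 6 of 6 (median 0.75) and dermal fibroblast markers in 6 of 8 (median 0.40), and epidermal markers were below 0 in 13 of 16 (median −0.20). By animal, in polled replicate 3 and scurred replicate 2, medians were 0.39 and 3.81 for skeletal muscle and 0.62 and 0.87 for Schwann cells. They were −0.67 and −0.13 for smooth muscle, 0.01 and 0.88 for endothelium and 0.30 and 0.68 for macrophages. Fibroblast medians were 0.09 and 0.67 and epidermal ones −0.07 and −0.20. Among all genes 46.1% were above 0 and 53.9% below. The part of these markers in the values of the chains was not tested.

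**Figure D5:**
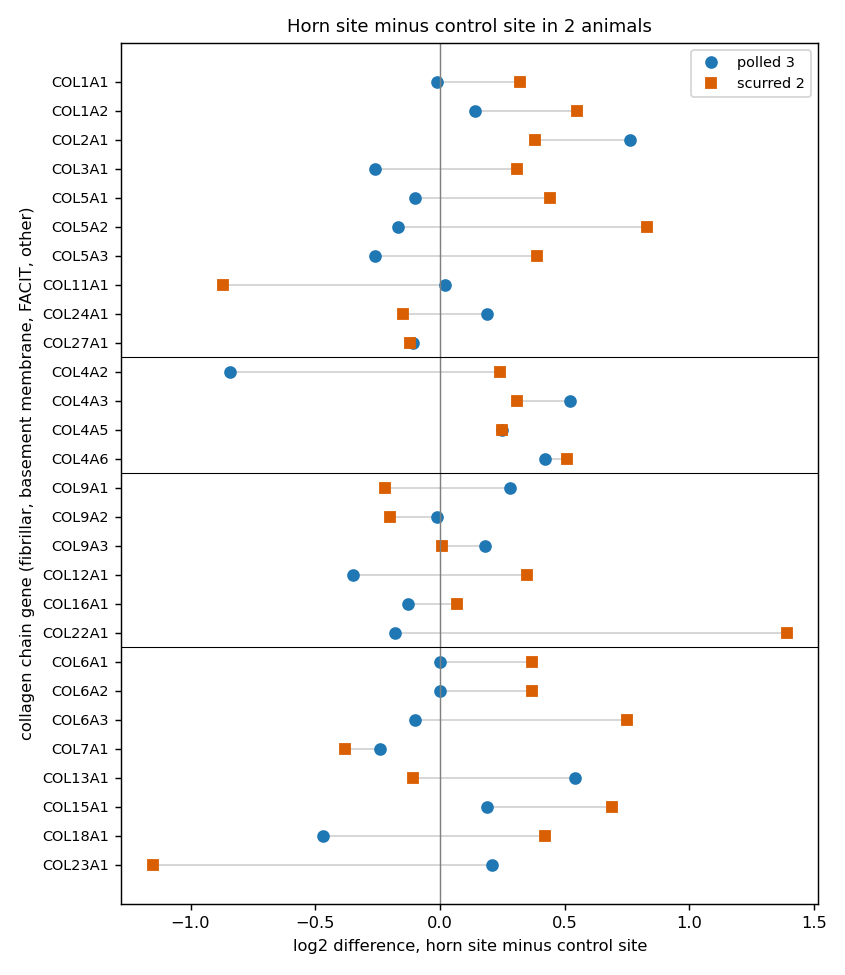
Log2 difference between horn site and control site of the 28 chains measured on chip 5, in polled replicate 3 (circles) and scurred replicate 2 (squares), ordered by class. COL4A5 and COL4A6 lie right of 0 in both animals, and COL5A2 lies on opposite sides (−0.17 and 0.83).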

How the data were processed

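Spot brightness was deposited as linear intensity values for the red and the green dye. The authors' table gives log10 ratios of the dyes. The submitters' processing notes list Agilent Feature Extraction 9.5.1. The scale and direction of these ratios were checked against the scanner files, where 14 columns ran as red over green and 6 the other way, with column medians from −0.019 to 0.00929. Here intensities were corrected with normexp (offset 50) and with loess within arrays, using limma 3.58.1, R 4.3.3 and the data.table package (1.17.8). Each polled or scurred animal was set against the horned animal of its chip, and the 8 differences were fitted together with terms for polled, scurred and male (5 residual degrees of freedom). Moderated p-values, two-sided, were adjusted over all probes by Benjamini-Hochberg. Levels per animal came from channels taken separately, after a further quantile normalization of mean intensity between arrays. Their fit had a term for dye but none for chip. Precision is limited by the number of animals. The chip is part of the design (loop arrays); same-chip deviations of polled and scurred animals correlated at 0.237, 0.287, 0.424 and −0.0842.

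Named chains are the 8 of lowest p with 1 sign in every animal in each comparison, 13 chains of dermis and basement membrane, and fitted values of other genes were picked after their values were seen. Members, lists and the examples in the plots were chosen with earlier results of these data known. Alternatives were other normalizations and filters, no sex term, no chip block, and leaving out each animal or chip.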

Additional observations from a re-analysis of the deposited data

Results flagged for a closer look

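In 64 groups of 4 animals (32 chains in polled and in scurred skin, as differences from horned), 4 values lay far from the other 3 by Dixon's ratio, and chance gives about 1 in 20 groups. COL5A3 stood at −0.75 in polled replicate 2, against −0.09 to 0.01 in the other polled animals. COL6A3 stood at 0.56 in polled replicate 3, against −1.01 to −0.75 in the other polled animals, and at −0.57 in scurred replicate 1, against 0.46 to 0.56 in the other scurred animals. COL11A2 stood at 0.99 in scurred replicate 4, against −0.05 to 0.01 in the other scurred animals. Its probe was well above background in only 1 polled, 2 scurred and 0 horned animals, so most of its values lie near background.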

How the results depend on the processing

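Limits: the groups hold 3 or 4 animals, sex and horn type overlap, and dim chains lie near background, so a p past 0.05 does not show that values were alike. The median over chains in polled minus horned was −0.18 with no filter and kept its sign under the other normalizations and filters. Called probes there numbered 0 with deposited log ratios, with median centring and with no replicate block, against 1 as reported. They were 1 with median centring in scurred minus horned and 1 with no sex term in scurred minus polled. Of the 24 chains well above background in all animals, 9 were below 0 in scurred minus horned and 5 in scurred minus polled. Of all 38 chains, with no filter, 13 were below 0 in scurred minus polled. As reported these were 14 and 8 of 32. At the horn site 17 of 28 were below 0 with median centring and 13 of 38 with no filter, against 8 of 28 as reported.

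The chip served as a replicate block. With no replicate block the median was −0.37 in polled minus horned, 0.04 in scurred minus horned and 0.32 in scurred minus polled. COL1A2 then stood at −0.01 in scurred minus horned and COL7A1 at 0.05 in scurred minus polled.

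Signs also turned for single chains near 0. With median centring COL14A1 was 0.02 in polled minus horned, COL1A2 −0.10 and COL6A1 −0.03 in scurred minus horned, and COL7A1 0.01 in scurred minus polled. With no sex term COL14A1 was 0.00 in polled minus horned, and COL4A2 0.02 and COL1A2 −0.04 in scurred minus horned. With the polled male and the sex term both left out, chosen after seeing the data, COL12A1 was 0.09 and COL14A1 0.05 in polled minus horned. COL4A2 was then 0.03 and COL1A2 −0.05 in scurred minus horned, and COL3A1 −0.11 and COL7A1 0.20 in scurred minus polled. At the horn site COL12A1 was −0.01 with deposited log ratios. Median centring gave COL12A1 −0.39, COL4A5 −0.09, COL1A1 −0.26, COL1A2 −0.08, COL3A1 −0.40, COL5A1 −0.14, COL5A2 −0.06, COL6A1 −0.17 and COL6A3 −0.06 there. The cause was not tested.

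With 1 animal or chip left out, the median over chains ran from −0.57 (without horned replicate 2) to 0.07 (without chip 2) in polled minus horned, with 14 to 28 chains below 0. It ran from −0.07 to 0.24 in scurred minus horned with 8 to 20 below 0, from −0.21 to 0.56 in scurred minus polled with 6 to 21 below 0, and from 0.00 to 0.31 at the horn site with 8 to 16 below 0. Called probes ran from 0 to 1 in both comparisons with horned and from 0 to 2 in scurred minus polled. Such fits are given for the named chains only. Among these, the chains whose sign turned follow. For polled minus horned they ran for COL12A1 from −0.38 to 0.77, COL14A1 from −0.13 to 0.12, COL1A2 from −1.83 to 0.14, COL15A1 from −0.62 to 0.02. For scurred minus horned they ran for COL4A2 from −0.18 to 0.36, COL1A1 from −0.50 to 0.38, COL1A2 from −0.42 to 0.69, COL3A1 from −1.15 to 0.42. For scurred minus polled they ran for COL12A1 from −0.19 to 1.20, COL11A1 from −2.01 to 1.28, COL1A1 from −0.37 to 1.99, COL1A2 from −0.55 to 1.80, COL3A1 from −0.62 to 1.53, COL13A1 from −1.04 to 0.88, COL7A1 from −0.87 to 1.25. For horn site minus control site they ran for COL12A1 from −0.35 to 0.35, COL4A2 from −0.84 to 0.24, COL1A1 from −0.01 to 0.32, COL3A1 from −0.26 to 0.31, COL5A1 from −0.10 to 0.44, COL5A2 from −0.17 to 0.83, COL6A1 from 0 to 0.37, COL6A2 from 0 to 0.37, COL6A3 from −0.10 to 0.75.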
